A study of Mus musculus with 2 samples.

Results

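Collagens are the triple-helical proteins that give the extracellular matrix its strength, and the mouse genome encodes each chain with a separate gene. The collagen genes examined here were all protein-coding genes on mouse chromosomes 1 to 19 whose symbol is Col, a number, a and a number, as in Col1a1. They numbered 42 of the 20661 protein-coding genes on those chromosomes. The measurement was chromatin immunoprecipitation with sequencing (ChIP-seq) for H3R17me2a, a histone H3 tail on which the methyltransferase Carm1 has put 2 methyl groups on the same nitrogen of an arginine. The study has 2 samples of wild-type mouse heart at P21 (21 days), forming 1 group, and no other genotype or age was analysed here. The labels differ on the source, with the tissue and protocol naming frozen heart and the source name cardiac fibroblasts, and the design text calls the tissue neonatal. Carm1 stands in both sample titles, yet the genotype given is wild type. Each sample has 1 deposited peak list, called list 1 and list 2 after the sample numbers.

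The family falls into classes by the structures its chains build. Fibrillar collagens (11 genes) form the cable-like fibrils of connective tissue, and types I and III, made mainly by fibroblasts, are the main fibrillar collagens of the heart. Type IV collagens (4 genes on these chromosomes) form the sheet-like network of the basement membrane around cardiomyocytes and vessels. The other 27 genes encode fibril-associated, beaded-filament, transmembrane and further types. Type IV genes lie head to head in pairs that start from a common stretch of DNA. Carm1 is known as a coactivator of transcription.

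List 1 held 21496 nuclear peaks and list 2 held 38012, with a weakest −log10 p of 5 and 2.01. The number of ChIP reads at each summit could be recovered from the deposited fold and p, with medians of 26 and 15 reads. Where a peak of one list overlapped a peak of the other, in 20978 pairs, both had the identical summit base in 42.1%. At 8814 such pairs with recovered reads the median difference was 1 read. These pairs were picked for an identical summit, so the difference covers them alone. Whether the lists share reads was not tested. The samples were counted as 1, so values from both lists carry no replicate error. Both lists marked an end of 9 of 10 cardiomyocyte marker genes, compared with 0 of 10 fibroblast, 1 of 10 endothelial, 2 of 10 mural and 2 of 10 immune markers, where the same rule marked 40.1% of all 20661 genes. Of the 10 fibroblast markers, 1 had a gene-end peak in list 2 alone, where list 2 marked 47.7% of all genes. Overlapping peaks of both lists lay in the body of 1 fibroblast marker, against 44.6% of all genes. Such body peaks were in 10 of 10 cardiomyocyte, 3 of 10 endothelial, 4 of 10 mural and 0 of 10 immune markers. In whole tissue, fewer cells of a type and less mark per cell cannot be told apart.

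The starts of 6 collagen genes are shown here because they carry the main contrast, with peaks of both lists over the type IV windows and none over those of types I, III and V. Each window runs from 250 bp before to 50 bp after an annotated transcript start, which can lie inside the gene span (RefSeq, GRCm38.p6, the assembly of mm10), 5′ to 3′ on the gene's strand. Capitals mark the CCAAT box, the GC box GGGCGG and the TATA motif TATAAA, each searched on both strands. The Col4a1 window is chr8:11312777-11313076 on the minus strand and the Col4a2 window chr8:11312555-11312854 on the plus strand. Col4a4 is chr1:82586800-82587099 on the minus strand. Col5a1 is chr2:27886175-27886474, Col1a2 is chr6:4505368-4505667 and Col3a1 is chr1:45311288-45311587, all on the plus strand.
Col4a1: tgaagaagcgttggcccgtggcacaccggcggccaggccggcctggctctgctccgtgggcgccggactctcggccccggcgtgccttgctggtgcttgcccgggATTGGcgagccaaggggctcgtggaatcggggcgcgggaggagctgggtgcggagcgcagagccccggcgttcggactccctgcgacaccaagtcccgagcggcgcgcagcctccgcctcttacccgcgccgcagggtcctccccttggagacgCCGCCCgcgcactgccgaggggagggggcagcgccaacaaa
Col4a2: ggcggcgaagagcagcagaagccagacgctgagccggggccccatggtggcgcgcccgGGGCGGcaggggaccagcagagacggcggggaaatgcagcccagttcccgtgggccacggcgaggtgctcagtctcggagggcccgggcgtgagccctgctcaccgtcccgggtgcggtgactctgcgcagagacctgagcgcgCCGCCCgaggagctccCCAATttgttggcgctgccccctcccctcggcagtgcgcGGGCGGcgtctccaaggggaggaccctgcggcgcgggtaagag
Col4a4: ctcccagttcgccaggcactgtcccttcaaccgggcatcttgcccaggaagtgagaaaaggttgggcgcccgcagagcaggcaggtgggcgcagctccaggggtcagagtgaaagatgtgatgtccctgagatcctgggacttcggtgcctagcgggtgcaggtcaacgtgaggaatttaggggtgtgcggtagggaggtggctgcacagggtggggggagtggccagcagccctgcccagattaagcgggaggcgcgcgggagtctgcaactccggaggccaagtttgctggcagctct
Col5a1: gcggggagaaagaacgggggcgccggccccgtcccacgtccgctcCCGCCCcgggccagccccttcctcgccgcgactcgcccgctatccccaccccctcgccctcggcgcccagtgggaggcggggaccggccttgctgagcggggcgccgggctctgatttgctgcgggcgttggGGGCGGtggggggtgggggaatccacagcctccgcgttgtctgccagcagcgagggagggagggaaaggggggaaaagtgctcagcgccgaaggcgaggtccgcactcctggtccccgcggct
Col1a2: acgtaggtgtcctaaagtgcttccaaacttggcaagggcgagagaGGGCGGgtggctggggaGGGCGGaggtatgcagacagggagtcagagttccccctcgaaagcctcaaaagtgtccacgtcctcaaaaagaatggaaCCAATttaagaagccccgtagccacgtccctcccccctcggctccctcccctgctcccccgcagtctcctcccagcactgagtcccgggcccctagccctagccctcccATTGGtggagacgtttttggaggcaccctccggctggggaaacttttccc
Col3a1: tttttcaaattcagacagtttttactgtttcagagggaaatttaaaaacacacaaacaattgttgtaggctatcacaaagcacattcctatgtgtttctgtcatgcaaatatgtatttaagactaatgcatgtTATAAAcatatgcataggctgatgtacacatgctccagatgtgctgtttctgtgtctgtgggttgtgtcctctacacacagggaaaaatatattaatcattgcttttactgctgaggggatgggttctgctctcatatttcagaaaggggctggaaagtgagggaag
The GC box at base 260 of the Col4a1 window and that at base 258 of the Col4a2 window, counted from 1 at each window's 5′ end, are the same site, which starts at base 11312812 of chromosome 8.

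H3R17me2a was found at the ends of 7 of the 42 collagen genes in both lists (16.7%, 95% exact interval 6.97 to 31.4%), whereas the same rule marked 40.1% of all protein-coding genes. The ends of a gene were taken as windows reaching 1000 bp inwards and outwards from where its span begins and stops. In list 1 alone the rule marked the same count of 7 (40.6% of all genes), and in list 2 alone 10 (47.7%), adding Col1a1, Col12a1 and Col27a1. The marked genes were all 4 type IV genes, Col4a1, Col4a2, Col4a3 and Col4a4, 1 of 11 fibrillar genes, Col11a2, and 2 of the 27 others, Col17a1 and Col23a1. The 4 type IV genes share 2 start regions, so they amount to 2 marked places and not 4 independent ones, which the interval above does not allow for. No gene-end peak in both lists was found at Col1a1, Col1a2 or Col3a1, the genes of collagens I and III. The fibroblast markers listed above were also low, with 0 of 10 marked. So were the endothelial (1 of 10), mural (2 of 10) and immune markers (2 of 10). A part of any cell type in the result was not tested.

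**Figure D1:**
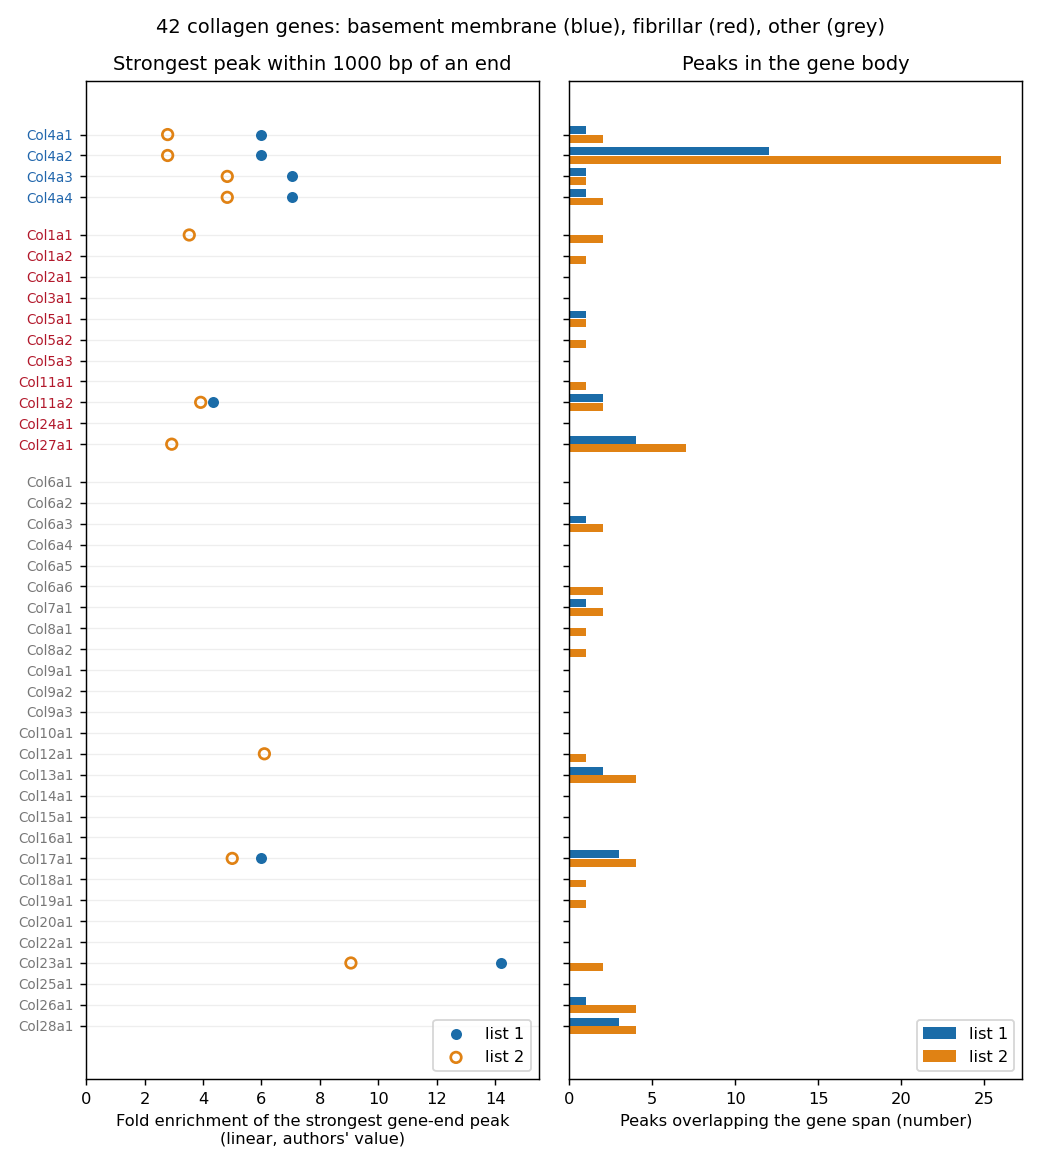
For each of the 42 collagen genes the left panel gives the fold enrichment (linear, as deposited) of the strongest peak within 1000 bp of a gene end in list 1 (filled) and list 2 (open), and the right panel the number of peaks overlapping the gene span. The 4 type IV genes have an end peak in both lists, and most fibrillar and other genes have none in either. In the right panel Col4a2 stands out with 12 and 26 body peaks. A list 2 body peak is in 7 of 11 fibrillar (63.6%) and 13 of 27 other genes (48.1%), against 55.3% of all protein-coding genes.

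**Figure D2:**
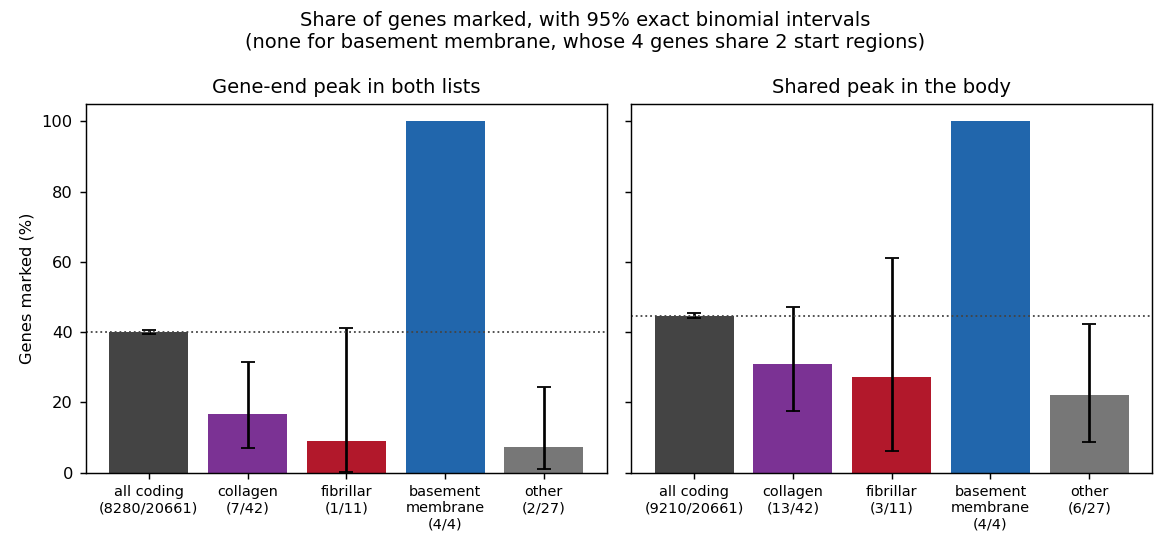
Bars give the percentage of genes with a gene-end peak in both lists (left) or a shared peak in the body (right), with counts under each bar, 95% exact binomial intervals (none for the type IV genes, which share starts) and a dotted line at the level of all protein-coding genes. Collagen genes as a whole lie below that line at 16.7% and 31.0%, and the type IV genes at 100%.

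The 4 type IV genes were marked at the heads they share. Col4a1 and Col4a2 encode the chains of the basement membrane network found in nearly all tissues, and their spans overlap by 85 bp on chromosome 8. A list 1 peak (11312314 to 11313212) with a fold of 6 and a list 2 peak (11312267 to 11313398) with a fold of 2.79 covered both starts. Their summits fell on the same base, 150 bp from the Col4a2 start and 234 bp from the Col4a1 start, with 29 reads in list 1 and 30 in list 2. A second, weaker pair of peaks with folds of 3.67 and 2.39 and 10 reads each lay 924 bp from the Col4a1 start. The head region thus held nearly equal reads in both lists but ranked differently, since 30.7% of list 1 peaks and 81.4% of list 2 peaks had a higher fold than the main peak. At a common −log10 p threshold of 5, Col4a1 and Col4a2 were lost, because the list 2 peak reached 4.75.

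Col4a3 and Col4a4 encode chains of the specialised basement membrane known best from the kidney filter. Their spans overlap by 114 bp on chromosome 1. A list 1 peak (82586945 to 82587181) with a fold of 7.05 and a list 2 peak (82586927 to 82587286) with a fold of 4.83 had their summits on the same base, 53 bp from the Col4a4 start, with 15 and 14 reads. This mark was stronger in fold than that of Col4a1 and Col4a2 in both lists, on fewer reads, and it stayed marked at the common −log10 p of 5 and among the stronger 50% of each list by fold. The remaining type IV pair, Col4a5 and Col4a6, lies on the X chromosome outside the rule. There Col4a5 was marked at an end in both lists and Col4a6 in list 2 alone.

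Col11a2, a chain of the cartilage fibril collagen XI, was the 1 fibrillar gene marked at an end. The list 1 peak (chromosome 17, 34039279 to 34039611) had a fold of 4.33 and the list 2 peak (34038688 to 34039669) a fold of 3.92, with 12 reads in each and the summit 515 bp inside the gene. The list 1 peak began 360 bp past the start, and the far end of Rxrb, a retinoid X receptor gene, lies 516 bp before it. The mark at Col11a2 was lost at a common −log10 p of 5, at a −log10 q of 2 and among the stronger 50% by fold.

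Both marked genes among the others carried the peak at their far end. Col23a1, a transmembrane collagen, had the strongest gene-end peak of the family, with folds of 14.2 in list 1 (chromosome 11, 51584013 to 51585234) and 9.06 in list 2 (51584009 to 51585235) and 57 reads in each. The summit lay 944 bp (list 1) and 939 bp (list 2) past the end of Col23a1 but 215 and 210 bp from the start of the neighbouring gene Phykpl, and the peak did not overlap the span of Col23a1. The start of Col23a1 had no peak in either list. Col17a1, the transmembrane collagen of the hemidesmosome in skin, had folds of 5.97 and 5 at a summit 511 bp beyond its far end and 584 bp from the far end of Slk, a kinase gene. A second peak lay 559 bp inside Col17a1, with folds of 5.67 and 3.84. Over the 7 marked genes the median fold of the strongest gene-end peak was 6 in list 1 and 4.83 in list 2, beside 4.15 and 3.88 over all 8280 marked genes.

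Every collagen end marked in both lists lay within 2000 bp of the end of another protein-coding gene. For the type IV genes that other gene was their head-to-head partner. In list 2 alone, Col1a1, Col12a1 and Col27a1 had peaks at ends without such a neighbour. Of the 84 collagen ends, 12 had such a neighbour and 7 of them were marked in both lists (58.3%), whereas none of the 72 ends without one was (3 counts, the limit set by a count of 0, would be 4.17%). Over all protein-coding genes 37% of ends with a neighbour and 17.7% of those without were marked. The unmarked ends with a neighbour belonged to Col6a6, Col7a1, Col9a3, Col18a1 and Col20a1. Intervals and such limits cover counting error only and take each gene or end as independent, although the type IV genes share their marked ends.

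The strand of 33 collagen genes was given by the promoter table, so that their start of transcription could be told from their far end. The start was taken as the outer end of the gene span. In Col6a5, Col20a1, Col27a1 and Col28a1 the annotated transcript start lies over 1000 bp inside it. The 300 bp windows at those annotated starts were not under peaks of both lists. Of these starts, 4 were marked in both lists (12.1%), against 39.4% of all starts. Where no other gene end lay within 2000 bp, 0 of 28 collagen starts were marked (exact interval 0 to 12.3%), against 32.9% of 13133 starts. With a neighbour, 4 of 5 were marked against 65.2%, and those 4, Col4a1, Col4a2, Col4a4 and Col11a2, include the shared head of Col4a1 and Col4a2. At far ends the counts were 2 of 33 against 4.98%. Counted without ends near another gene, the family had 0 of 42 genes marked, and all protein-coding genes 26.9%.

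The family stayed below the level of all genes under each other rule tried for a gene end. The same 7 collagen genes were marked with windows of 500 bp (37.6% of all genes) and 3000 bp (44.5%), with an overlap of at least 50% (38.6%), and with list 2 cut to as many peaks as list 1 by −log10 p (36.6%). A −log10 q of 2 left 6 genes (35.3%). A −log10 p of 5 left 4, Col4a3, Col4a4, Col17a1 and Col23a1 (34.2%), and the stronger 50% by fold left the same 4 (12.6%).

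**Figure D3:**
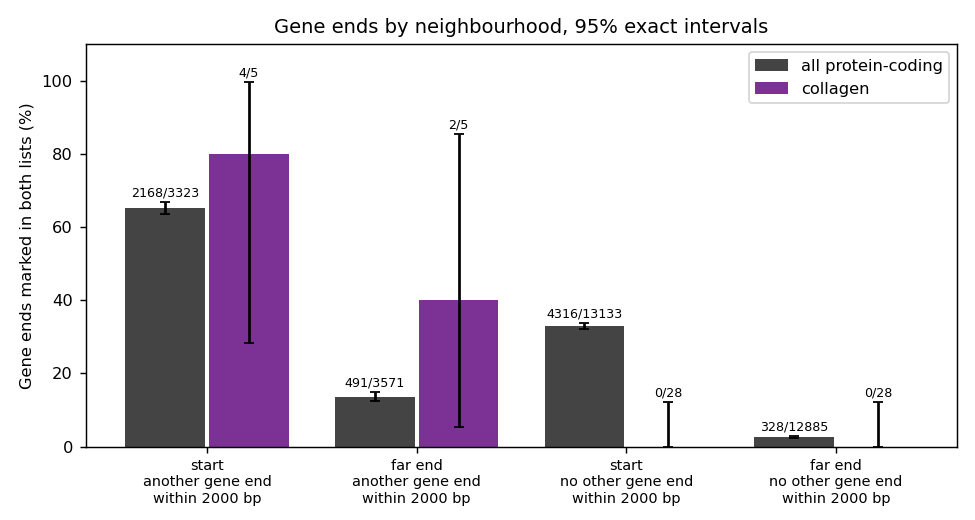
Bars give the percentage of gene ends with a peak in both lists for all protein-coding genes (dark) and collagen genes (purple), split by start of transcription or far end and by whether another gene's end lies within 2000 bp, with 95% exact intervals and counts above. Collagen starts without a neighbour are at 0 of 28, where 32.9% of all such starts were marked.

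Collagen starts rich in CG were found both with and without the mark. CG dinucleotides gather at the starts of widely used genes, and the mark followed them over all genes, with 2.53% of 300 bp start windows with 0 to 4 CG under peaks of both lists and 68.7% of those with 30 or more. The 36 start windows of 33 collagen genes had a median of 12 CG, close to the 14 of all 20084 windows. Of them 3 lay under peaks of both lists (8.33%), Col4a1 with 37 CG, Col4a2 with 33 and Col4a4 with 14, against 36.6% of all windows. Among windows with at least 20 CG, 2 of 9 collagen windows were under peaks of both lists, against 66.7% of 7450. Col5a1, with 34 CG and a window as rich as that of Col4a2, had no peak there, nor had the short-chain collagen gene Col8a2 with 32. Col3a1 had 0 CG and Col1a2 had 13.

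**Figure D4:**
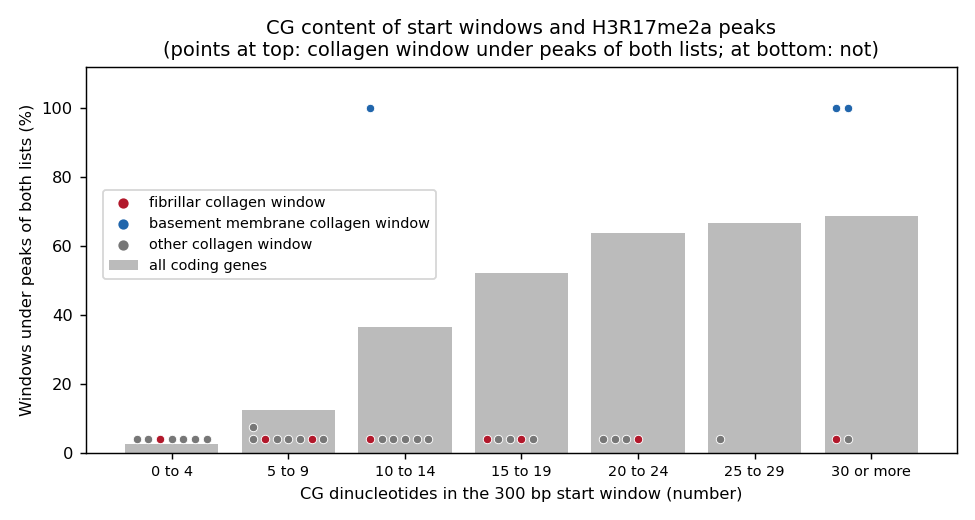
Grey bars give the percentage of 300 bp start windows under peaks of both lists by their number of CG dinucleotides, for all protein-coding genes, and points the 36 collagen windows, at the top where under peaks of both lists and at the bottom where not. Of the 9 collagen windows with 20 or more CG only the Col4a1 and Col4a2 windows are at the top.

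Over all genes, GGGCGG was in 71% of windows under peaks of both lists and 33.2% of the others, TATAAA in 5.45% and 16.9%, and CCAAT in 39.4% and 37.4%. A CCAAT box was in 33.3% of collagen windows and 38.1% of all windows, GGGCGG in 58.3% and 47%, and TATAAA in 13.9% and 12.7%. Col4a1 and Col4a2 hold both CCAAT and GGGCGG, as does Col1a2, whose window had no peak. Col4a4 holds none of the 3 motifs and was marked.

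Inside the genes, a peak shared by the lists overlapped the span of 13 of the 42 genes (31.0%), against 44.6% of all protein-coding genes. In list 2 alone a body peak was in 24 collagen genes (57.1%), against 55.3% of all. For such body peaks the 13 genes were all 4 type IV genes, 3 fibrillar genes (Col5a1, Col11a2 and Col27a1) and 6 others (Col6a3, Col7a1, Col13a1, Col17a1, Col26a1 and Col28a1). In Col4a1, Col4a3 and Col4a4 the shared peak was that at the head alone. With the 1000 bp next to each end left out, 10 genes held such a peak (23.8%), against 16.1%. Collagen genes are long, with a median of 110 kb against 17.5 kb, and long genes hold peaks more often. Among genes of 100 to 200 kb a shared body peak was in 9 of 18 collagen genes against 61.9% of all, and above 200 kb in 0 of 6 against 55.3%. From 20 to 50 kb it was in 3 of 11 against 53.1%, from 50 to 100 kb in 1 of 3 against 60.3%, and up to 20 kb in 0 of 4 against 34.4%. For peaks beyond 1000 bp of both ends the length classes went both ways. From 20 to 50 kb the counts were 3 of 11 against 18.5%, and from 50 to 100 kb 1 of 3 against 30.5%. From 100 to 200 kb they were 6 of 18 against 42%, above 200 kb 0 of 6 against 45.3%, and up to 20 kb 0 of 4 against 6.24%. With an overlap of at least 50% a body peak remained in 12 collagen genes (37.5% of all genes) and with list 2 trimmed in 13 (41.3%). At a −log10 p of 5 there were 11 (38.9%), at a −log10 q of 2 there were 12 (40.1%), and among the stronger 50% by fold 11, or 26.2%, which is above the 19.5% of all genes.

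Col4a2 held far more peaks than any other collagen gene. In its 136 kb lay 10 shared peaks beyond 1000 bp of both ends, 7.33 per 100 kb, and in the 114 kb of its partner Col4a1 there was none. The folds of these 10 ran from 3.6 to 10 with a median of 6.67 in list 1, on 9 to 49 reads. In list 2 they ran from 2.52 to 8.29 with a median of 5.05, on 10 to 52 reads. The summit was on the same base in 6 of the 10, and 1 list 2 partner was weak, with a fold of 2.72 and a q of 0.328. Their summits lay 18.9 to 107 kb from the start. The strongest (chromosome 8, 11381832 to 11383464 in list 1 and 11381825 to 11383863 in list 2) had folds of 10 and 8.29 on 49 and 52 reads, with the summit on the same base 70 kb into the gene. As many or more such peaks were found in 140 of the 20661 genes (0.678%) and in 41 of the 1368 genes of 100 to 200 kb (3%). The family as a whole had 26 such peaks, 0.528 per 100 kb against 0.908 over all genes, and 16 of them, 0.334 per 100 kb, without Col4a2.

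**Figure D5:**
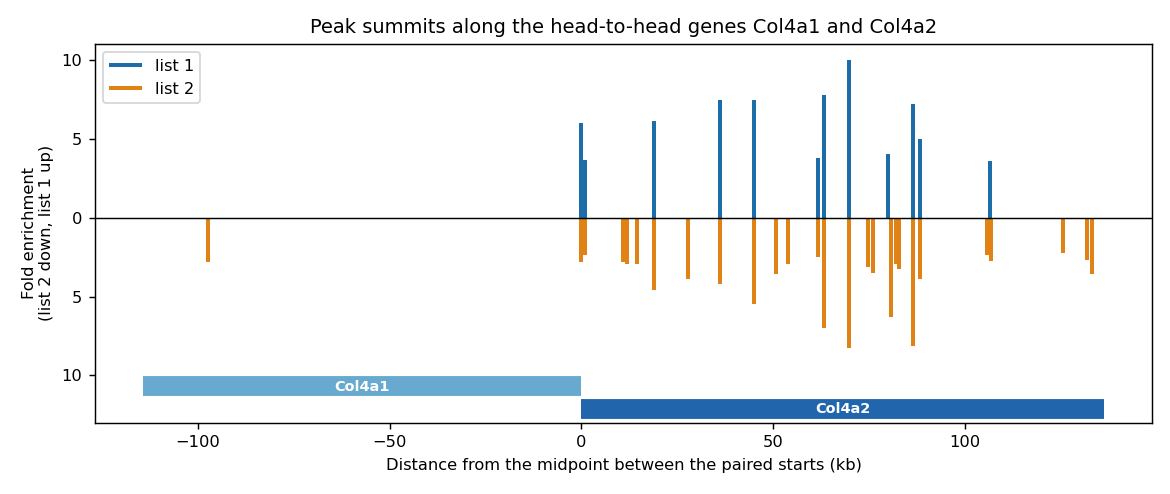
Each line is a peak summit, drawn up to its fold enrichment in list 1 and down to that in list 2, against distance in kb from the midpoint between the starts of Col4a1 and Col4a2, with the gene spans as bars. The peaks run from the shared head into Col4a2, with list 1 holding none inside Col4a1 away from the head.

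Col27a1, a fibrillar collagen of cartilage, held 4 shared peaks inside its 121 kb. The strongest (chromosome 4, 63231328 to 63231651 in list 1) had folds of 14.9 and 9.72 on 30 and 27 reads, 17.5 kb from the start, and 1.13% of list 1 peaks had a higher fold. Its other shared peaks had list 1 folds of 4.95, 7.96 and 8.46. Col27a1 was therefore marked inside although its start had only a weak list 2 peak, with a fold of 2.93 and a q of 0.333. Col5a1, a chain of the minor fibrillar collagen V that starts fibril assembly, held 1 shared peak 31.9 kb from the start (chromosome 2, 27918209 to 27918413), with folds of 7.96 and 6.1 on 15 reads in each list. The second Col11a2 peak lay 1.23 kb from its start in list 1, with folds of 5.67 and 2.88.

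Among the others, Col28a1, a collagen with von Willebrand domains, held 3 shared peaks with folds of 9.45, 5.97 and 6.47 in list 1 and 6.46, 4.21 and 4.52 in list 2. Col7a1, whose protein forms the anchoring fibrils of skin, held 1 with folds of 9.1 and 5.16 on 18 and 17 reads, 17.3 kb into the gene. These peaks lay well inside the genes, and their starts had none. Col17a1 and Col13a1, both transmembrane collagens, held 2 each, of which the strongest had folds of 6.72 and 5.19 in Col17a1 and 5 and 9.03 in Col13a1. Col26a1 had 1 (5 and 6.37). Col6a3, the long chain of the beaded-filament collagen VI that surrounds muscle fibres, had 1 (5.33 and 3.84, 15 and 17 reads, 46.6 kb from the start). Its partners Col6a1 and Col6a2 had no peak in either list.

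A further 10 collagen genes had peaks in list 2 alone, and list 1 held no peak at a collagen gene without a partner in list 2. Col1a1 had a list 2 peak near each end, with folds of 3.16 and 3.53 on 7 and 8 reads and a q of 0.186 for both. Col1a2 had 1 inside with a fold of 3.27 and a q of 0.333, as had Col5a2. These were weak calls, and of the 42 list 2 peaks at collagen genes without a list 1 partner 64.3% had a q above 0.05, where list 2 as a whole, peaks with a partner included, had 38.1%. Stronger exceptions were Col6a6, with a fold of 10.9 on 28 reads 8.88 kb from its start, and the fibril-associated Col12a1, with 6.1 on 15 reads 902 bp from an end. Inside Col23a1 a list 2 peak reached a fold of 12.3 on 32 reads. The remaining genes of the 10 were Col8a1, Col8a2, Col11a1, Col18a1 and Col19a1, with folds from 2.8 to 3.9.

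In 18 genes neither list had a peak at an end or in the body. They were the fibrillar Col2a1, Col3a1, Col5a3 and Col24a1, the fibril-associated Col9a1, Col9a2, Col9a3, Col14a1, Col16a1, Col20a1 and Col22a1, the beaded-filament Col6a1, Col6a2, Col6a4 and Col6a5, and Col10a1, Col15a1 and Col25a1. They include genes at work in the heart, such as Col3a1 and the collagen VI pair, and genes of cartilage, such as Col2a1 and Col10a1. Among all protein-coding genes 42.3% had no peak in either list, and among collagen genes 42.9%.

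The genes that make, process and bind collagen were marked unevenly. Both lists marked an end of 29 of 82 such genes in 6 groups (35.4%), where all genes gave 40.1%. Enzymes and chaperones that modify and fold procollagen were marked at 14 of 21, among them Ppib, a proline isomerase (folds of 6.25 and 9.99), and Fkbp10 and P3h4, which share an end (8.13 and 8.86). Partners of type IV collagen in the basement membrane were marked at 8 of 11, including the laminin genes Lama4 (5.97 and 4.52) and Lamb2 (5.67 and 4.71, from peaks that do not overlap each other) and perlecan, Hspg2 (4.6 and 4.12). Many of the modifying enzymes act in the endoplasmic reticulum. A reason for the uneven counts was not tested.

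The remaining groups, of cleavage and crosslinking, fibril association, receptors and degradation, had lower counts, where the rule marked 40.1% of all genes. Procollagen cleavage and crosslinking was marked at 3 of 13, Pcolce2, an enhancer of procollagen cleavage (6.2 and 4.73), Adamts3, a procollagen protease (5.2 and 4.09), and Bmp1, which removes the procollagen C-terminal propeptide (5.17 and 3.26). Fibril-associated proteins were marked at 2 of 14, the proteoglycan gene Podn (4.49 and 5.45) and the collagen-binding Sparc (4.79 and 3.49). Receptors were marked at 1 of 10, the shared integrin chain Itgb1 (3.94 and 3.19), and matrix degradation at 1 of 13, the inhibitor Timp3 (2.5 and 1.9). The groups were not tested against each other, and genes are not replicates.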

How the data were processed

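The labels describe 1 group of 2 wild-type heart samples taken at 21 days, and whether these are separate animals is not said. The submitters' processing notes list FastQC, Bowtie2 and mm10. The peak caller and control library were not given in the sources used here. The authors deposited 1 peak list per sample without a header, in the narrow peak layout. Each deposited peak has a fold, the linear ratio of summit signal over background, and its p-value and q-value as −log10. The authors' score equals 10 times that −log10 p in 100% of list 1 and 99.997% of list 2 peaks. These are the authors' own values and describe or filter peaks within a list. List 1 lacks 15 peak numbers, of which 0 lie between peaks that flank a collagen gene, and its 1 mitochondrial peak was set aside.

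Reads at each summit were recovered after seeing the data, taking the fold as (reads + 1) / (background + 1) and p as the Poisson upper tail. This gave whole reads within 0.001 of the −log10 p in 99.87% of list 1 peaks, and in 99.89% of list 2 peaks with reads multiplied by 0.618, a factor found by scanning for the highest share of matches. With p exchanged between peaks the shares were 0.9% and 2.55%. The method was tested on simulated peaks. Total depth is unknown.

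Gene spans came from the RefSeq table of GRCm38.p6, which shares the coordinates of mm10, and strand from its promoter table. Coordinates count from 1, and 1 shared bp was an overlap. Marked ends had a peak from each list within 1000 bp, and a marked body meant that a list 1 peak that overlaps a list 2 peak overlapped its span. Every collagen gene with a shared peak was named, and up to 3 genes of each pathway group with the lowest summed rank by fold. Motifs and the CG count were chosen after seeing the data. The members and lists were chosen with earlier results of these data known. No test was run, since there is 1 group, counted as 1 sample, and the members are compared with all genes by counts. Intervals are 95% exact binomial. Python 3.11.15, numpy 2.4.6, pandas 2.3.3, scipy 1.17.1 and matplotlib 3.10.9 were used. Alternative thresholds, windows, overlaps and list choices were tried, and their effect is given in the closing section.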

Additional observations from a re-analysis of the deposited data

How the results depend on the processing

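The counts at collagen ends and bodies rest on few genes, so 1 gene can move them, and reads of about 9 to 57 per shared list 1 peak limit the fold of each. Of the counts recomputed under other settings, 69 stayed within 1.5 times the count reported and 18 did not. At a common −log10 p of 5 the gene-end counts fell to 4 collagen genes in all, 0 fibrillar and 2 basement membrane. The upper 50% of peaks by fold gave the same 4, 0 and 2. That setting marked 13 of 82 pathway genes (15.9%), above the 12.6% of all genes. A −log10 q of 2 gave 0 fibrillar genes. With starts of transcription alone the counts were 4 of 33 collagen genes and 0 of 22 in the other class. Without ends near another gene they were 0 collagen genes, 0 fibrillar, 0 basement membrane and 0 other. Using 1 list alone (without replicate 1 or without replicate 2), gene-end counts ranged from 7 to 10 for the family and 1 to 3 for fibrillar genes. Body counts ranged from 13 to 24 for the family, 3 to 7 for fibrillar and 6 to 13 for other genes, the higher value always from list 2, whose threshold was lower. In list 1 alone the family was at 31% against 45.2% of all genes. In list 2 alone it was at 57.1% against 55.3%, so the lower share in bodies was not seen there. Windows of 500 or 3000 bp, a 50% overlap, list 2 trimmed to the length of list 1, and Col15a1 and Col18a1 counted as basement membrane moved no count of collagen genes by over 1.5 times. With Col15a1 and Col18a1 added, however, the basement membrane share fell from 100% to 66.7% (4 of 6), at ends and in bodies alike. No paired analysis was possible because there is 1 group.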
